A study of Mus musculus with 217 samples.

Results

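Endothelial mRNA of the lung 6 hr after a systemic injection of lipopolysaccharide (LPS), the cell wall endotoxin of gram-negative bacteria, was compared with endothelial mRNA of control lungs. The part of the series described here was taken from the labels alone, as the libraries named lung, 6 hr, set against those named lung, 0 hr, and it rests on 4 of the 5 libraries labelled in each of the 2 groups, out of 98 libraries of brain, lung and heart in the whole series. All mice were adult C57BL/6J animals of the genotype Cdh5CreERT2/+; Rpl22HA/+ that had received tamoxifen by gavage as young animals. The 0 hr mice were labelled control, and the study's methods name an injection of PBS for controls. The 6 hr mice had received LPS intraperitoneally at 10 mg/kg. In these animals a tamoxifen-inducible Cre recombinase under the VE-cadherin (Cdh5) promoter leaves a haemagglutinin tag on the ribosomal protein RPL22, and tagged ribosomes were pulled from homogenates of whole frozen lung with an antibody to the tag. The mRNA is therefore what tagged ribosomes carried, in a model that depends on where Cdh5 drives Cre, and fewer endothelial cells and less RNA per cell cannot be told apart in such bulk samples. The question asked of the comparison is how the lung endothelial translatome differs early in endotoxin injury.

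LPS is sensed by the receptor TLR4 with its partner MD-2 (the product of Ly96) and the co-receptor CD14. The adaptors below TLR4 lead to NF-κB, which switches on chemokines, adhesion molecules and its own inhibitors, and to type I interferons, which switch on the interferon-stimulated genes. Endothelial cells line every vessel, and in the lung they form the capillary side of the gas exchange surface, keep blood from clotting through surface thrombomodulin and clear circulating prostaglandins. In inflammation they display selectins and chemokines that capture neutrophils.

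The short stretches of promoter below are shown because they carry the letters that NF-κB and interferon-regulated factors are known to read, in genes whose level was higher at 6 hr and whose values follow. They were chosen after the values were seen. The promoter windows were those of RefSeq on GRCm38.p6, from 250 bases before to 50 bases after each gene start, and both strands were searched for GGGA and TTCC set 2 bases apart (NF-κB type) and for GAAA and GAAA set 2 bases apart (type of the interferon-stimulated response element), whatever those 2 bases were. Each line reads 5′ to 3′ on the strand of its gene, and capitals mark the match, on whichever strand it was found. In Cxcl1 and Cxcl2 the matches on both strands overlap, so the capitals span 11 bases.
Cxcl1, NF-κB type, chr5:90891165-90891193, plus strand: ctgtactccGGGAATTTCCCtggcccgga
Cxcl2, NF-κB type, chr5:90903793-90903821, plus strand: ctgagctcaGGGAATTTCCCtggtccccg
Nfkbia, NF-κB type, chr12:55492657-55492686, minus strand: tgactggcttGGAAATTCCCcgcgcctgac
Cxcl10, NF-κB type, chr5:92349029-92349058, minus strand: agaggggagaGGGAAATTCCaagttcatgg
Cxcl10, interferon type, chr5:92349083-92349112, minus strand: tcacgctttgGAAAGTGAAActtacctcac
Gbp5, NF-κB type, chr3:142496847-142496876, plus strand: ggagaggaaaGGAAATTCCCagggctggcc
Gbp5, interferon type, chr3:142496759-142496788, plus strand: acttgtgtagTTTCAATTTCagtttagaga
Rsad2, interferon type, chr12:26456553-26456582, minus strand: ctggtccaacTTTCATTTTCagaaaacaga
Ifit3, interferon type, chr19:34583397-34583426, plus strand: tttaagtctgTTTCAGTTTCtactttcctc
Saa3, interferon type, chr7:46715782-46715811, minus strand: gttatcttctGAAAGAGAAAttatgggtaa
The Cxcl1 match lay 61 to 71 bases upstream of the gene start and that of Nfkbia 20 to 29 bases upstream. Of the 223 genes higher at 6 hr that had a promoter window, 16 (7.18%) held the NF-κB letters, against 165 of the 9131 tested genes with a window (1.81%), 441 of all 27025 genes with a window (1.63%) and 3 of the 283 lower genes (1.06%). The interferon letters were found in 24 of the 223 higher genes (10.8%), 342 of the 9131 tested (3.75%), 1079 of all 27025 (3.99%) and 6 of the 283 lower genes (2.12%). These are matches of letters given as a description, with no test.

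The libraries were uneven. Counts on genes ranged from 3666859 to 43417945 in the 4 control libraries used and were 2678119, 2745503, 40128330 and 284457 in 6 hr replicates 1 to 4. Rows that hold ribosomal RNA or reads like it took 1.26% to 19.8% of the gene counts at 0 hr and 36.5%, 62.8%, 5.23% and 92.8% at 6 hr. Replicate 4 at 6 hr had 20595 counts outside those rows and 3760 genes with any count, and replicate 3 had 18248 genes with any count. The fifth library of each group was left out because under 3% of its reads fell on genes. Since replicate 3 held most of the 6 hr counts, main results are given beside the change in 6 hr replicate 3 alone against the 4 controls, a fit that assumes that a lone library varies like the other lung groups. Levels are given as normalised CPM, counts per 1000000 of the TMM-scaled library size. A count of 0 still allowed, at 3 counts, 0.0622 to 0.698 normalised CPM in the control libraries and 1.16, 2.67, 0.0696 and 59.0 in 6 hr replicates 1 to 4, and these limits cover counting error only. A single count in replicate 4 at 6 hr was worth 19.7 normalised CPM, so values of 0 and 19.7 there could not be told apart at its depth. The difference in ribosomal RNA between the groups moved with time, and its part in the results was not tested. A fit without those rows, chosen after seeing the data, gave 362 genes higher and 386 lower, against 319 and 389 with them. That fit leaves the depth of each library on other genes as it was, so it does not test this part. Rpl22, the tagged gene, was read in every library, at 61.8, 94.8, 97.8 and 111 normalised CPM in 0 hr replicates 1 to 4 and 75.8, 54.2, 75.6 and 19.7 in 6 hr replicates 1 to 4, and did not pass the test (log2 fold change -0.38 ± 0.54, adjusted p = 0.71).

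**Figure D1:**
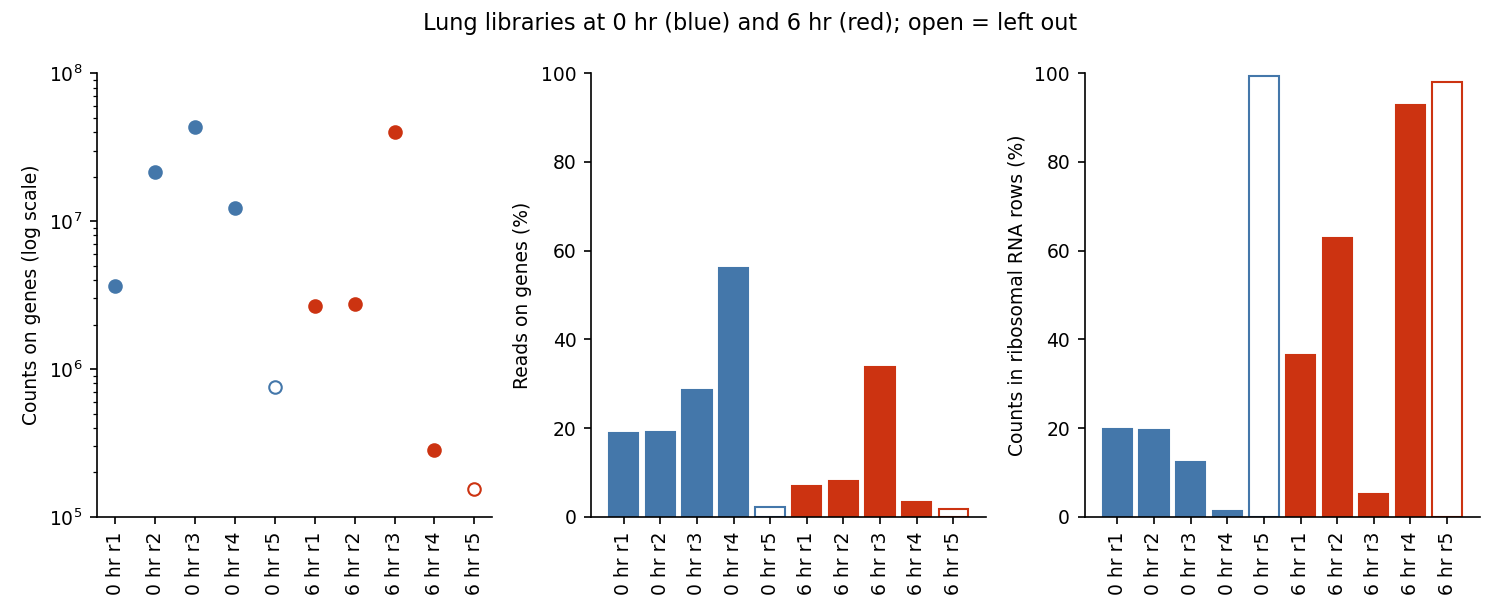
Counts on genes (log scale), the percentage of reads on genes and the percentage of gene counts in ribosomal RNA rows for each lung library at 0 hr (blue) and 6 hr (red), with the libraries left out drawn open. Replicate 3 at 6 hr is the deepest 6 hr library, at 40128330 counts and 5.23% ribosomal RNA rows, and replicate 4 has 284457 counts and 92.8%.

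Of 12116 genes tested with edgeR's quasi-likelihood test at a Benjamini-Hochberg adjusted p of 0.05, 319 (2.63%) were higher and 389 (3.21%) lower at 6 hr. Fold changes are log2 of 6 hr over 0 hr, with a standard error (SE) from the fit of all 24 lung libraries, and all lists are read against these shares and against a median of -0.38 over all genes tested. With DESeq2's size factors that median was -0.14 and the calls were 518 higher and 399 lower. Of the 319 higher genes, 268 had a positive change in replicate 3 alone and 91 passed the threshold there. All 389 lower genes had a negative change in replicate 3 alone and 19 passed the threshold there. Over all genes tested 47.4% had a positive change in replicate 3 alone, and replicate 3 is itself among the libraries behind the calls. Replicate 3 alone gave, among the same 12116 genes, 146 higher (1.21%) and 25 lower (0.206%). Replicates 1 to 3 at 6 hr were above every control for 219 of the 319 higher genes, against 552 of all tested (4.56%), and all 4 were above for 72, against 133 (1.10%). Replicates 1 to 3 were below every control for 336 of the 389 lower genes, against 1456 (12.0%), and all 4 for 330, against 1322 (10.9%). In these counts replicate 4 enters with its value as read, also where 0 to 3 counts do not place it above or below the controls. Within the libraries of the file-name series that holds 6 hr replicates 1 to 3 and 0 hr replicates 2 and 3, all 319 and all 389 kept their sign but 0 genes passed edgeR's test, with 1288 at an unadjusted p under 0.05. These libraries are also among those behind the calls, so the kept signs are no separate check. The share of kept signs over all genes tested was not worked out. Of the 389 lower genes, 264 had 0 counts in 6 hr replicate 4, as had 157 of the 319 higher genes. Among the lower genes 123 had 0 counts in each of replicates 1, 2 and 4. Replicate 4 had any count for 3760 genes, and the share of 0 counts over all genes tested was not worked out.

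The acute-phase genes, which code for proteins that are secreted in early inflammation, rose together, 9 of 13 tested higher and none lower, with a median log2 fold change of 3.08. Saa3, which codes for a serum amyloid A protein made outside the liver, stood at 77.9, 35.1, 11.2 and 1.96 normalised CPM in 0 hr replicates 1 to 4 and at 4421, 2904, 14693 and 78.6 in 6 hr replicates 1 to 4. Replicates 1 to 3 at 6 hr lay far above every control, and replicate 4 lay level with the highest control. Saa3 rose by 7.66 ± 1.61 (adjusted p = 0.0064) and by 9.36 in replicate 3 alone (adjusted p = 0.0089). Lcn2, the iron-scavenging lipocalin also known as NGAL, stood at 38.8, 55.6, 5.48 and 11.1 normalised CPM at 0 hr and 1618, 1213, 537 and 98.3 at 6 hr. Every 6 hr library was above every control, and Lcn2 rose by 5.17 ± 0.93 (adjusted p = 0.0024). Serpina3f, a member of a serine protease inhibitor cluster, was at 3.72, 6.54, 2.20 and 5.47 against 206, 685, 84.8 and 0 and rose by 5.86 ± 0.89 (adjusted p = 0.0011). Its close relatives Serpina3g and Serpina3n, which may share reads with it, rose by 3.32 ± 0.70 and 3.67 ± 0.77. Cp, Hp and Ptx3, which code for ceruloplasmin, haptoglobin and pentraxin 3, rose by 3.00 ± 0.60, 2.66 ± 0.69 and 3.08 ± 0.88. Lbp and C3, the LPS-binding protein and the third complement component, were at 0.43 ± 0.62 and 0.68 ± 0.73 and did not pass. Saa1 and Saa2 did not pass the filter on low counts and were not tested, with raw counts of 1, 18, 1 and 1 (Saa1) and 0 in each control (Saa2) against 9044 and 3659 in 6 hr replicate 3.

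The metallothioneins, small proteins that bind zinc and copper, were among the steepest. Mt2 stood at 11.9, 18.4, 11.1 and 5.79 normalised CPM at 0 hr and 1151, 1077, 4175 and 39.3 at 6 hr, and Mt1 at 58.1, 45.5, 18.3 and 8.01 and 1199, 857, 1559 and 138. Both were above every control in replicates 1 to 3, and replicate 4 held only 2 counts of Mt2. Mt2 rose by 7.40 ± 1.45 (adjusted p = 0.0041) and Mt1 by 5.24 ± 1.31 (adjusted p = 0.019). Most of the Mt2 exons, 432 of 588 bases, overlap an antisense gene, and no strand setting was given, so reads of that gene cannot be told apart from those of Mt2. Slc39a14, the zinc importer ZIP14, was at 10.0, 4.60, 4.65 and 10.5 and 75.0, 121, 139 and 0 and rose by 4.19 ± 0.89 (adjusted p = 0.0066).

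Chemokine ligands rose, 7 of 18 tested and none lower, with a median of 3.36 over the list and 2.53 in replicate 3 alone. The neutrophil attractants Cxcl1 and Cxcl2 lie side by side on chromosome 5. Cxcl1 (chr5:90891241-90893115 on mm10) stood at 6.98, 5.25, 0.332 and 0.478 normalised CPM in 0 hr replicates 1 to 4 and 247, 17.8, 102 and 78.6 in 6 hr replicates 1 to 4. Every 6 hr library was above every control, and Cxcl1 rose by 5.67 ± 1.07 (adjusted p = 0.0037) with 5.79 in replicate 3 alone. Cxcl2 was at 1.40, 0, 0.643 and 0.0531 and 202, 52.5, 19.2 and 0, high in replicates 1 to 3 only, and rose by 7.84 ± 1.31 (adjusted p = 0.0017). The interferon-driven ligands that draw T cells rose as far. Cxcl10 was at 0.465, 1.19, 1.10 and 3.93 at 0 hr and 924, 309, 53.3 and 0 at 6 hr and Cxcl9 at 0.233, 0.594, 0.560 and 1.80 and 133, 133, 18.0 and 19.7, with changes of 7.28 ± 1.17 (adjusted p = 0.0013) and 6.67 ± 1.06 (adjusted p = 0.0012). The monocyte attractant Ccl2 was at 20.0, 2.82, 0.602 and 0.849 and 102, 72.0, 10.2 and 39.3 and rose by 4.36 ± 0.95. Its change in replicate 3 alone was 2.25, and 6 hr replicate 3 lay below 0 hr replicate 1. Ccl5, which also draws T cells, rose by 4.28 ± 0.80. Cxcl12, a ligand with a homeostatic role, did not pass (1.55 ± 1.04, adjusted p = 0.38), and its sign differed between the 4 libraries and replicate 3 alone (-3.69). Ackr1, the scavenging chemokine receptor of venules, was at 0.698, 0.545, 0.145 and 1.33 and 8.89, 0, 18.7 and 19.7 and rose by 4.90 ± 0.86 (adjusted p = 0.0022), and it shares 361 exon bases with Cadm3 on the same strand.

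**Figure D2:**
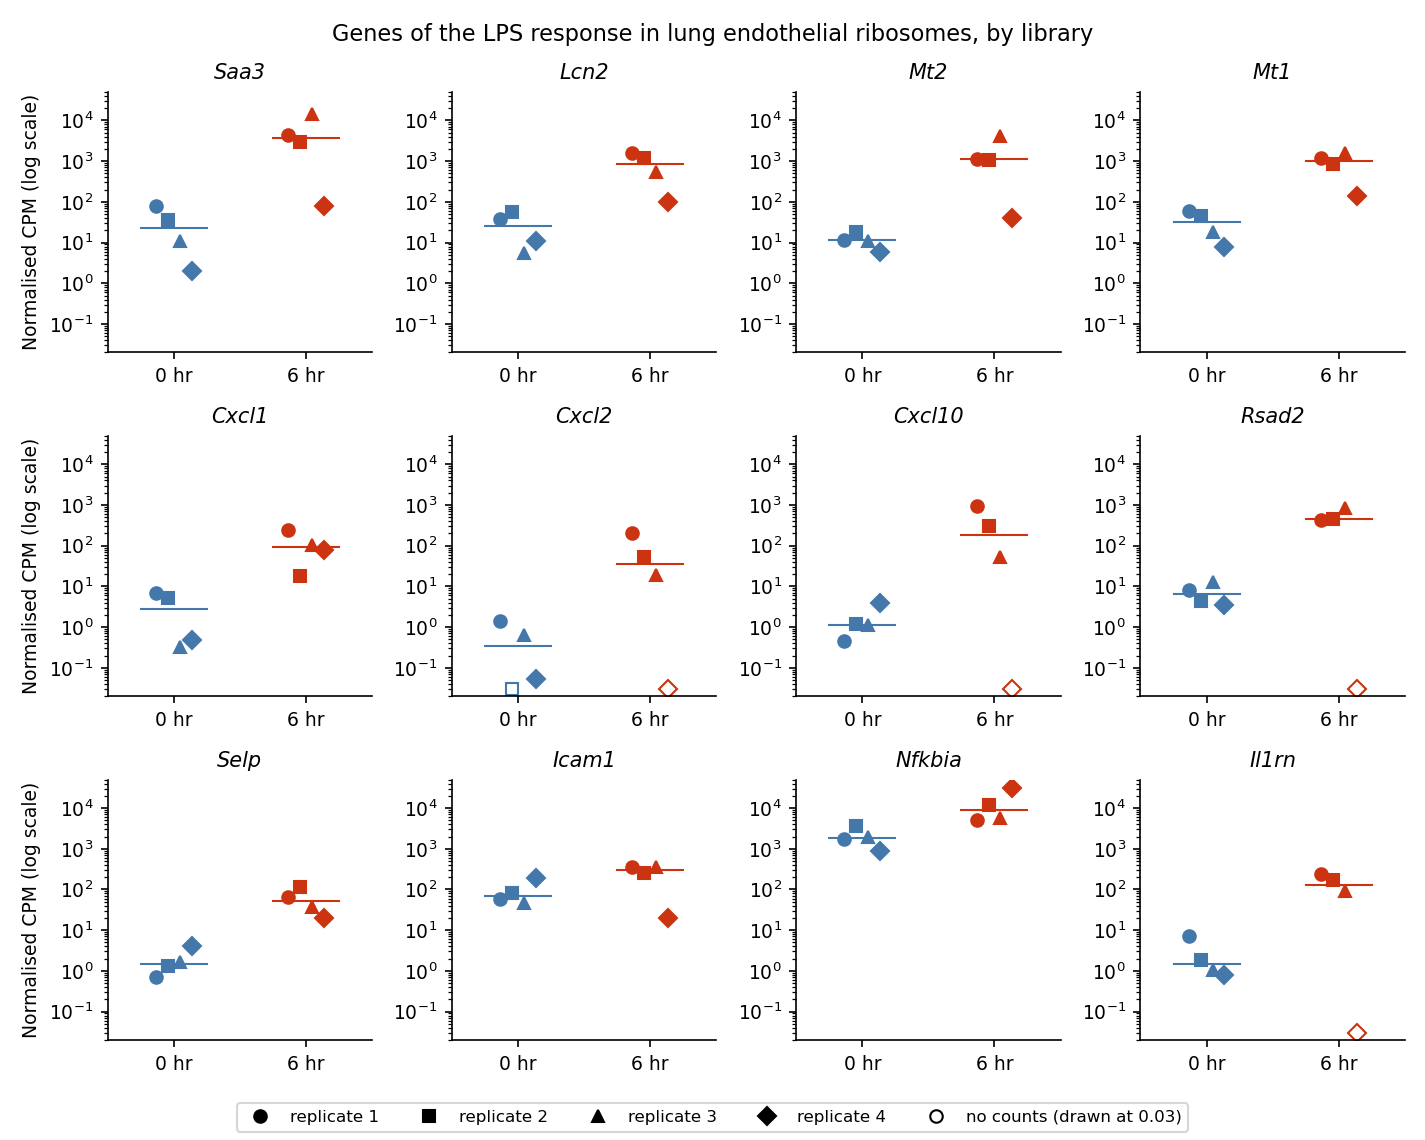
Normalised CPM (log scale) of 12 genes of the LPS response in each lung library at 0 hr (blue) and 6 hr (red), with the group median as a line and libraries with no counts drawn open at 0.03. Replicates 1 to 3 at 6 hr are above every control for each gene shown, and replicate 4, whose single count is worth 19.7, is at 0 for Cxcl2, Cxcl10, Rsad2 and Il1rn.

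Of the leukocyte adhesion molecules 1 of 13 tested passed. Selp, P-selectin, which starts the rolling of leukocytes on the vessel wall, stood at 0.698, 1.29, 1.70 and 3.98 normalised CPM at 0 hr and 66.5, 114, 37.7 and 19.7 at 6 hr, and rose by 5.61 ± 1.10 (adjusted p = 0.0041). Selp was above every control in replicates 1 to 3, and the single count of replicate 4 does not place that library. The gene shares 438 bases with a gene on the other strand. Icam1, the ligand of leukocyte integrins, was at 58.6, 83.1, 45.3 and 187 and 347, 259, 354 and 19.7. Replicates 1 to 3 at 6 hr were above every control, but with replicate 4 the test was not passed (1.65 ± 0.70, adjusted p = 0.15), and replicate 3 alone gave 2.36 (adjusted p = 0.14). Vcam1 was at 93.9, 103, 116 and 81.5 and 81.2, 93.3, 283 and 0, with replicate 3 alone above the controls and no call (0.24 ± 0.59, adjusted p = 0.84). Sele, E-selectin, did not pass the filter on low counts and was not tested, with raw counts of 0, 9, 0 and 19 in the controls and 0, 54, 257 and 0 at 6 hr.

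Of the NF-κB factors and feedback inhibitors 8 of 25 tested rose and none fell, with a median of 1.37. Nfkbia, which codes for the inhibitor IκBα and is itself an NF-κB target, stood at 1718, 3593, 1909 and 881 normalised CPM at 0 hr and 5206, 11643, 5833 and 31493 at 6 hr. Replicate 4 read it with 1602 counts, in a library with 20595 counts outside the ribosomal RNA rows, and stood well above the other 6 hr libraries. Every 6 hr library was above every control (2.68 ± 0.82, adjusted p = 0.048). Tnfaip3, the ubiquitin-editing enzyme A20, was at 4.42, 3.96, 7.80 and 36.3 and 164, 214, 76.1 and 0 and rose by 4.32 ± 0.91 (adjusted p = 0.0064). Nfkbiz, Bcl3, Ikbke and Tnip1 rose by 3.76 ± 0.77, 3.36 ± 0.73, 3.28 ± 0.91 and 2.77 ± 0.64. The subunits themselves did not pass, with Rela at -0.50 ± 0.58, Relb at 1.35 ± 0.56, Nfkb1 at 1.57 ± 0.58 and Nfkb2 at 1.36 ± 0.64. The called members of this list were inhibitors, a kinase (Ikbke), nuclear co-regulators (Bcl3 and Nfkbiz) and an RNase (Zc3h12a).

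In the TLR4 complex the co-receptor and its partner moved in opposite directions. Cd14 stood at 2.09, 1.88, 0.871 and 5.10 normalised CPM at 0 hr and 308, 76.5, 11.9 and 0 at 6 hr and rose by 5.64 ± 0.91 (adjusted p = 0.0013). Replicate 1 at 6 hr was highest for Cd14, as for the summed monocyte and macrophage markers (4082, 403, 522 and 0 in replicates 1 to 4). The part of those cells in the rise of Cd14 was not tested. Ly96, MD-2, stood at 25.6, 13.0, 16.7 and 14.1 and 0, 0, 2.18 and 0 and fell by 3.81 ± 0.73 (adjusted p = 0.0039). Ly96 was below every control in replicates 1 to 3, and the 0 of replicate 4 still allows a level above them. Ly96 also passed the threshold in replicate 3 alone (-2.89, adjusted p = 0.019), which 19 of the 389 lower genes did. Tlr4 itself gave 0.53 ± 0.81 (adjusted p = 0.73), and the other 14 members tested did not pass.

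Of the TNF and IL-1 family 5 of 15 tested rose, and 3 of them code for proteins that block their cytokine. Il1r2, the IL-1 decoy receptor, stood at 0, 1.34, 0.685 and 0.478 normalised CPM at 0 hr and 93.1, 150.2, 192 and 0 at 6 hr and rose by 7.21 ± 1.03 (adjusted p = 0.00073). Il1rn, the IL-1 receptor antagonist, was at 7.21, 1.88, 1.08 and 0.796 and 238, 169, 93.1 and 0 and rose by 5.60 ± 0.97 (adjusted p = 0.0021), and Il18bp, which binds IL-18, rose by 3.00 ± 0.78. Il1b rose by 4.48 ± 0.86 and the TNF receptor gene Tnfrsf1b by 2.29 ± 0.66. In the IL-6 and STAT3 list Il6 rose by 6.04 ± 1.47 (adjusted p = 0.016) from 3.95, 0.0495, 0 and 0 to 2.32, 0, 5.05 and 39.3, with its groups overlapping, and Socs3, the feedback inhibitor of that receptor, by 2.90 ± 0.71 (adjusted p = 0.017). Socs3 was highest in replicates 1 and 2, and replicate 3 alone gave 1.06 (adjusted p = 0.59). Lifr, the receptor of LIF, fell by 2.41 ± 0.62 (adjusted p = 0.02).

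Interferon-stimulated genes rose, 12 of 33 tested and none lower, with a median of 1.98, and all 33 had a positive change in replicate 3 alone, against 47.4% of all genes tested. Rsad2, viperin, stood at 8.37, 4.36, 12.8 and 3.56 normalised CPM at 0 hr and 439, 445, 819 and 0 at 6 hr. Replicates 1 to 3 were alike and far above the controls, replicate 4 had no counts, and Rsad2 rose by 5.89 ± 1.23 (adjusted p = 0.0062) with 6.99 in replicate 3 alone (adjusted p = 0.016). Mx2, listed as a polymorphic pseudogene in the annotation, rose by 6.68 ± 1.40. Ifit3 stood at 8.37, 8.02, 12.1 and 63.0 and 229, 113, 82.6 and 0 and rose by 2.70 ± 0.79 (adjusted p = 0.039), with 2.47 in replicate 3 alone (adjusted p = 0.17). Ifit2, of the same family, which binds foreign RNA, rose by 5.24 ± 1.02, with 1.45 in replicate 3 alone. It stood at 262, 165, 7.09 and 0 normalised CPM in 6 hr replicates 1 to 4 and 1.78 to 5.79 in the controls. Oasl1 rose by 4.83 ± 1.12 and Zbp1, a sensor of Z-form nucleic acids, by 3.71 ± 0.71. Isg15 was at 2.37 ± 0.80 and did not pass, and replicate 3 alone gave 3.43. Among the guanylate-binding proteins and IRG GTPases, interferon-induced enzymes that attack vacuoles with pathogens, 4 of 11 tested rose and none fell, with a median of 2.22. Gbp5 was at 4.65, 4.90, 9.52 and 21.8 and 130.3, 277, 117 and 0 and rose by 3.76 ± 0.81 (adjusted p = 0.0075). Gbp4, Irgm1 and Iigp1 rose by 2.85 ± 0.69, 2.59 ± 0.66 and 2.57 ± 0.66, and members of this family resemble each other closely enough to share reads. The MHC class I list of 20 tested genes had a median of -0.00 and the class II list of 10 a median of -0.72. In replicate 3 alone the medians were 0.76 and -1.24, with 19 class I genes and 1 class II gene positive.

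The genes of clotting moved both ways at the vessel surface. Thbd, thrombomodulin, the surface cofactor that turns thrombin toward protein C, stood at 535, 777, 1258 and 2747 normalised CPM at 0 hr and 21.6, 0, 46.6 and 118 at 6 hr. Every 6 hr library was below every control, and Thbd fell by 5.04 ± 1.00 (adjusted p = 0.0048). In replicate 3 alone the change was -4.58 and did not pass (adjusted p = 0.15). Procr, the endothelial protein C receptor, rose by 2.63 ± 0.67 and Thbs1, thrombospondin 1, by 2.32 ± 0.61. F3, tissue factor, was at 1.09 ± 0.88 (adjusted p = 0.47), and Vwf at -2.29 ± 0.80 (adjusted p = 0.082).

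Prostaglandin genes also parted. Hpgd, the enzyme that inactivates prostaglandins in the lung, had the steepest fall of the genes chosen by size, from 277, 154, 404 and 3726 normalised CPM at 0 hr to 5.80, 5.33, 20.4 and 0 at 6 hr. The groups did not overlap, although 0 hr replicate 4 stood about an order of magnitude above the other controls, and Hpgd fell by 5.85 ± 1.01 (adjusted p = 0.0021), with -4.73 in replicate 3 alone (adjusted p = 0.21). Ptges, the prostaglandin E synthase, was at 21.2, 16.4, 7.18 and 4.94 and 152, 61.3, 106 and 0 and rose by 3.20 ± 0.78 (adjusted p = 0.016). Ptgs2, COX-2, rose by 2.98 ± 0.89 (adjusted p = 0.045), and without 6 hr replicate 4 its change of 2.99 missed the threshold (adjusted p = 0.069). Tbxa2r, the thromboxane receptor, fell by 3.34 ± 0.88 (adjusted p = 0.024).

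Amino acid transporters and genes of matrix remodelling also held called members. Of the amino acid transporters 4 of 14 rose, with Slc7a11, the cystine importer, at 5.45 ± 1.06 and Slc7a5, the large neutral amino acid carrier, at 2.66 ± 0.67. Of the matrix proteases and inhibitors 5 of 16 rose, among them Adamts4, an aggrecanase, from 2.33, 1.14, 0.228 and 0.159 to 54.5, 11.6, 48.2 and 19.7 normalised CPM (5.80 ± 1.11, adjusted p = 0.0039), and Timp1, a metalloprotease inhibitor, at 3.79 ± 0.84. Mmp8 and Mmp9, of the same list, are also on the list of neutrophil markers. Pfkfb3, the glycolytic regulator, stood at 57.7, 84.2, 71.5 and 113 and 392, 362, 895 and 0. It did not pass with the 4 libraries (2.55 ± 0.83, adjusted p = 0.063) and passed in replicate 3 alone (3.84, adjusted p = 0.017). Outside the naming rule, and picked after its values were seen, Csf3, the granulocyte colony-stimulating factor, stood at 0, 0.842, 0.124 and 0 and 92.4, 166, 101 and 19.7 and rose by 8.74 ± 1.52 (adjusted p = 0.0021).

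The lung capillary markers were the list with the most members lower, 10 of 22 tested and none higher, with a median of -2.72 and of -1.88 in replicate 3 alone. A general list of endothelial markers, which shares Tmem100 and Ramp2 with this one, also had 6 of 20 lower. Its median was -1.37, and -1.49 in replicate 3 alone. The part of such a general fall in the falls of single endothelial genes and lists was not tested. Besides Hpgd, Tmem100, a membrane protein induced by ALK1 signalling, stood at 76.0, 128, 175 and 1954 normalised CPM at 0 hr and 31.3, 0, 8.28 and 39.3 at 6 hr and fell by 4.65 ± 1.09 (adjusted p = 0.012). Ramp2, the partner of the adrenomedullin receptor, stood at 851, 870.0, 1038 and 4172 and 8.89, 94.2, 138 and 118 and fell by 3.77 ± 0.78 (adjusted p = 0.0056). Both were below every control in replicates 1 to 3, with 0 hr replicate 4 the highest control, and Ramp2 shares 1103 exon bases with Vps25 on the same strand. Aplnr, the apelin receptor, went from 20.5, 21.9, 19.9 and 37.6 to 0.773, 0, 2.36 and 0 (-4.60 ± 0.97) and its ligand Apln from 132, 429, 215 and 328 to 7.73, 22.2, 70.4 and 39.3 (-2.71 ± 0.81). Sema3c, a secreted semaphorin, Tspan8, a tetraspanin, and Tbx2, a T-box factor, gave -3.96 ± 0.90, -3.71 ± 0.90 and -3.16 ± 0.62. Car4 and Kitl, of the same list, did not pass (-1.22 ± 0.56 and -1.25 ± 0.85), nor did Foxf1 (-2.09 ± 0.67, adjusted p = 0.058).

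**Figure D3:**
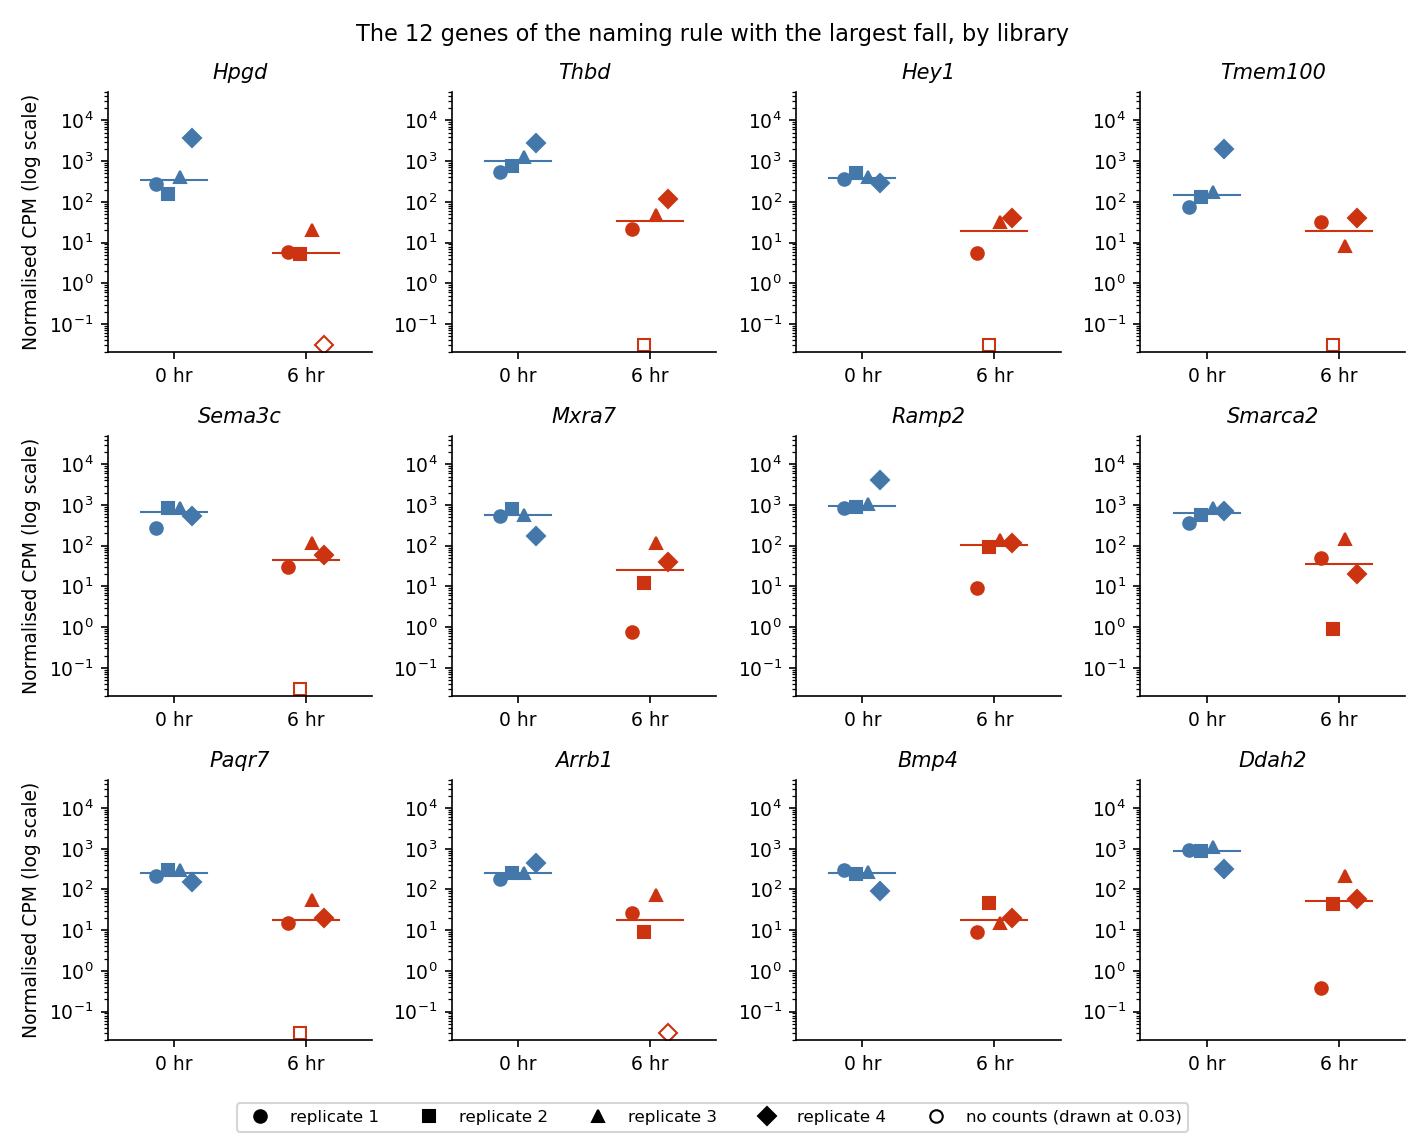
Normalised CPM (log scale) of the 12 genes with the largest fall among those of higher mean level whose 6 hr libraries all lie below all controls, per lung library at 0 hr (blue) and 6 hr (red), with medians as lines and libraries with no counts drawn open at 0.03. Hpgd and Tmem100 show 0 hr replicate 4 far above the other controls, and the 6 hr libraries of Hey1 range from 0 to 39.3.

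Regulators of endothelial identity followed. Of the Notch pathway and arterial genes 4 of 17 were lower. Hey1, a transcription factor induced by Notch, stood at 368, 524, 417 and 286 normalised CPM at 0 hr and 5.41, 0, 32.6 and 39.3 at 6 hr, with every 6 hr library below every control. Hey1 fell by 4.95 ± 0.87 (adjusted p = 0.0022) and passed in replicate 3 alone (-4.02, adjusted p = 0.027). Dll4, Jag2 and Ephb4 gave -2.54 ± 0.73, -2.47 ± 0.55 and -2.59 ± 0.76. In the BMP and TGF-β list Bmp4 stood at 299, 238, 271 and 89.6 and 9.28, 47.1, 15.0 and 19.7 and fell by 3.32 ± 0.66 (adjusted p = 0.0048), with -3.94 in replicate 3 alone (adjusted p = 0.07). The BMP targets Smad6 and Id3 were lower, Smad6 by 2.55 ± 0.65, and Inhbb, the subunit of activin B, moved the other way, from 0.698, 0.644, 1.68 and 2.60 to 70.3, 43.6, 64.0 and 0 (5.82 ± 1.20, adjusted p = 0.0056). Of the core endothelial transcription factors 4 of 19 were lower. Epas1, HIF-2α, stood at 1969.9, 2879, 4996 and 5554 and 414, 600.1, 1357 and 275 and fell by 2.57 ± 0.67 (adjusted p = 0.022). Erg, the ETS factor that keeps endothelial genes on, stood at 57.2, 45.5, 94.7 and 363 and 21.6, 6.22, 7.26 and 19.7 and gave -2.85 ± 0.76 (adjusted p = 0.024), and Sox18 -3.05 ± 0.84.

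Tek, the angiopoietin receptor TIE2, stood at 249, 297, 428 and 582 normalised CPM at 0 hr and 0, 47.1, 88.9 and 0 at 6 hr and fell by 3.41 ± 0.88 (adjusted p = 0.021). Ptprb, the phosphatase that restrains it, gave -2.41 ± 0.74 and the co-receptor Nrp1 -2.57 ± 0.59. Angpt2, the antagonist ligand, stood at 19.1, 35.7, 41.9 and 16.2 and 17.4, 0, 239.5 and 0, high in replicate 3 alone, and was not called (1.46 ± 0.94, adjusted p = 0.36). Ddah2, which protects nitric oxide synthesis, gave -3.28 ± 0.86 and Ace, the angiotensin-converting enzyme, -2.83 ± 0.71, while Nos3, the endothelial nitric oxide synthase, was at -0.28 ± 0.57 (adjusted p = 0.8) and Edn1 at 1.01 ± 1.09 (adjusted p = 0.6). Junction genes gave 1 call in 18, Ptprb. Cldn5 was at -1.12 ± 0.90 and Cdh5 at -0.81 ± 0.75, and Kdr and Pecam1 at -0.73 ± 0.61 and -0.33 ± 0.62, none past the threshold. Cldn5 showed how the libraries parted, at 3235, 4370.3, 3273 and 1899 in the controls and 481, 308, 5601 and 138 at 6 hr, below every control in replicates 1, 2 and 4 and above them in replicate 3. The circadian list had 3 of 16 lower, with Dbp at 75.8, 68.3, 56.9 and 112 and 1.16, 0, 7.49 and 39.3 (-4.32 ± 0.89, adjusted p = 0.0055), and Arntl, the clock activator BMAL1, higher at 5.83 ± 1.27. Dbp shares 539 bases with Sphk2 on the other strand. The times of day of the injections and collections were not given in the sources used here. Casp6, an executioner caspase, stood at 13.5, 12.5, 9.32 and 33.4 and 0, 0, 1.37 and 0 and fell by 4.55 ± 0.95 (adjusted p = 0.0062). Rspo3, an endothelial WNT amplifier picked after its values were seen, stood at 7.91, 7.82, 10.9 and 4.09 and 0, 0, 0.0927 and 0 and gave -6.94 ± 1.25 (adjusted p = 0.0024), also past the threshold in replicate 3 alone (adjusted p = 0.033).

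**Figure D4:**
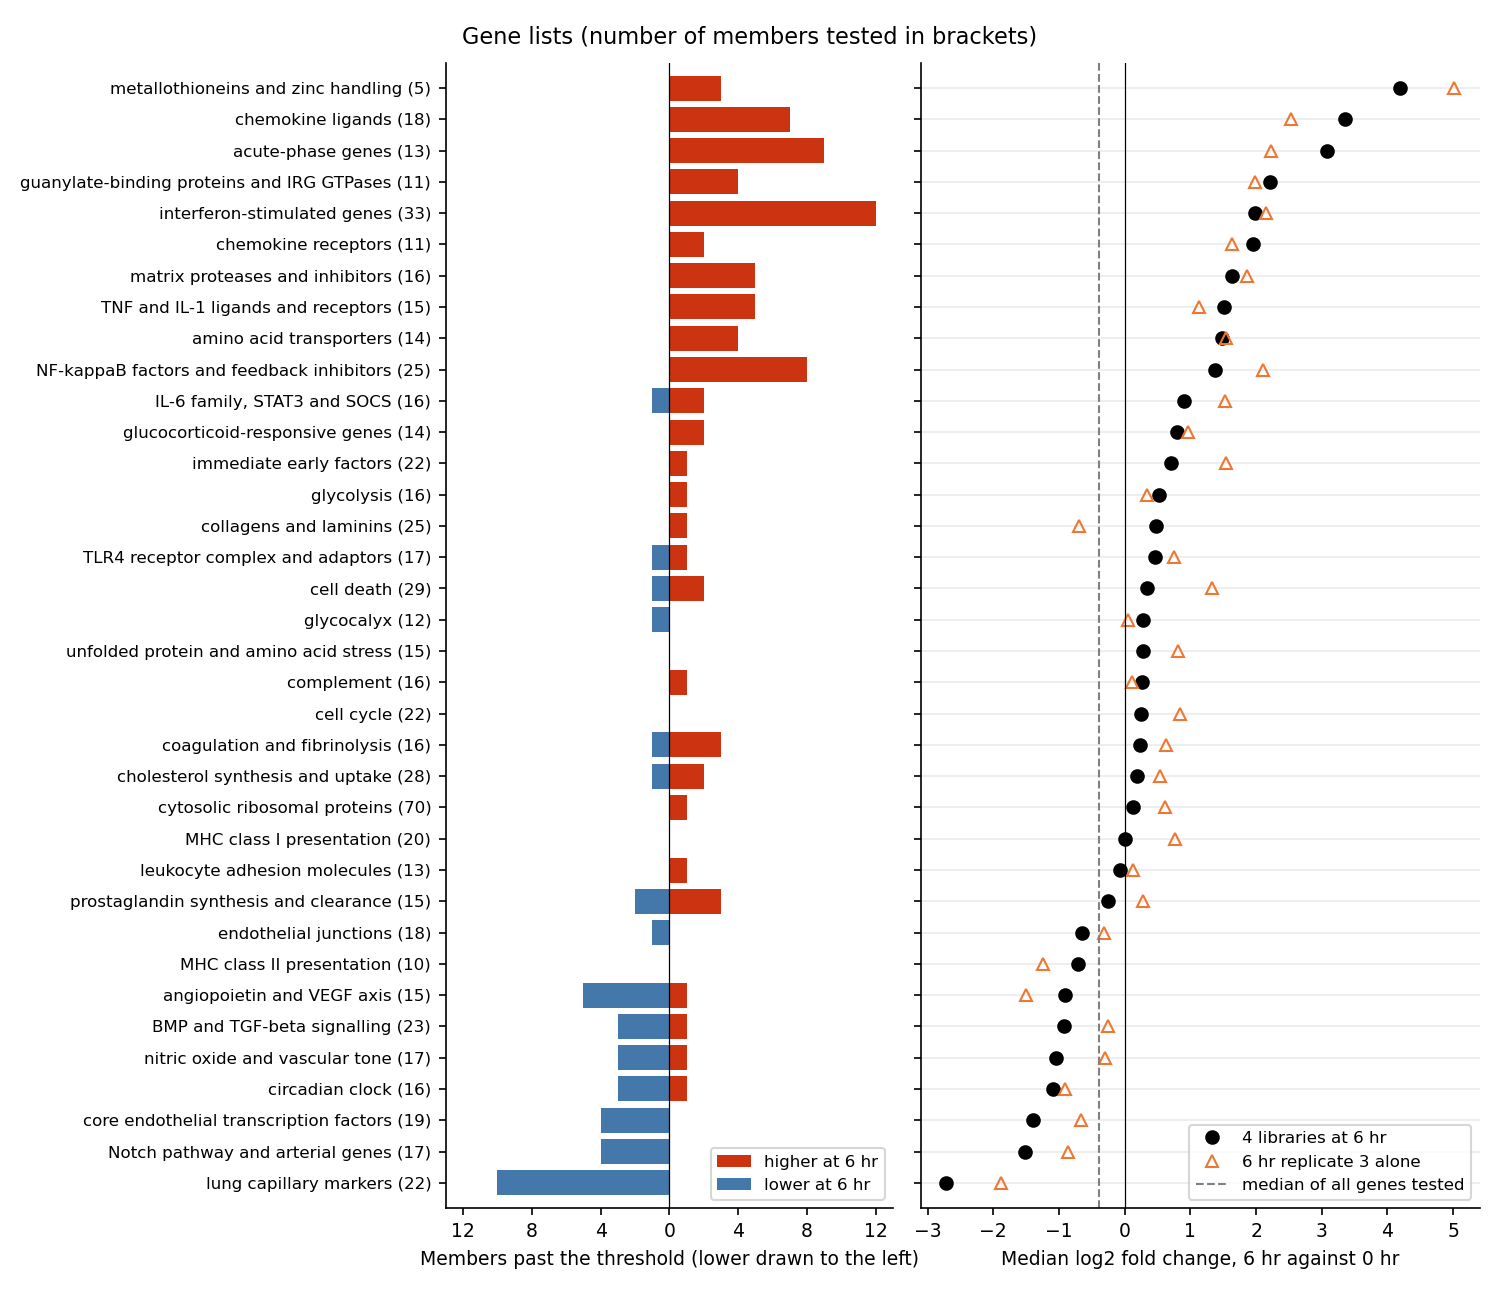
Members past the threshold in each gene list (left, number, higher in red and lower in blue) and the median log2 fold change of each list (right) with the 4 libraries at 6 hr (filled) and replicate 3 alone (open), beside the median of all genes tested at -0.38 (dashed). Lung capillary markers sit lowest at -2.72 and metallothioneins highest at 4.19.

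Some of the largest rises were read in the shallow libraries more than in the deep one. Of the 12 genes that the rule for the largest rises named, Saa3, Mt2, Mt1 and Lcn2 are described above, and Naa15, Nop58, Phf20, Cytip, Chka, Fth1 and B230303O12Rik were of this kind. Of the 319 higher genes 51 had no positive change in replicate 3 alone. Naa15, an N-terminal acetyltransferase subunit, stood at 46.3, 158, 69.4 and 32.4 normalised CPM at 0 hr and 1308, 5195, 165 and 727 at 6 hr, and gave 4.02 ± 0.81 with the 4 libraries and -0.09 in replicate 3 alone. Upf2, a factor of nonsense-mediated decay, stood at 41.2, 219, 126 and 11.6 and 1934, 9993, 118 and 983 (4.68 ± 1.01 and -0.89), and mt-Co1, a mitochondrial subunit, at 168, 195, 30.2 and 97.2 and 7391, 1424, 84.6 and 1121 (3.54 ± 1.00 and -1.73). In each, replicates 1, 2 and 4 were high and replicate 3 lay within or near the control range. Nop58, Phf20, Cytip, Chka, Fth1 and B230303O12Rik changed by 3.28 to 4.81 with 4 libraries and by 0.13 to 1.51 in replicate 3 alone, none past the threshold there. The genes Myl2 and Mb of heart muscle and Snap25 and Slc1a2 of neurons and astrocytes, named after their values were seen, were in this group as well. Myl2 stood at 218, 187, 0.951 and 78.6 normalised CPM at 6 hr and Snap25 at 17.8, 193, 0.580 and 256. These rises moved with the share of ribosomal RNA rows, which was larger in replicates 1, 2 and 4 than in replicate 3, and the part of that share was not tested.

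Markers of the other cells in lung were read as sums of normalised CPM over fixed lists. The endothelial list summed to 13192, 19461, 15329 and 20452 in the controls and 2169, 5328, 13303 and 2733 in 6 hr replicates 1 to 4, with 6 of its 20 members lower, none higher and none at 0 in the controls. In this sum replicate 3 lay close to the lowest control and the other 6 hr libraries well below (exact permutation p = 0.057, two-sided, 0.31 after adjustment over 11 lists, where 0.0286 is the smallest p that 4 against 4 allows). The sum includes Cldn5, which was above every control in replicate 3. Over the 20 members the median log2 fold change was -1.37 with the 4 libraries and -1.49 in replicate 3 alone, where 2 were positive. The neutrophil list summed to 119, 128, 170 and 40.0 in the controls and 2881, 1354, 2842 and 19.7 at 6 hr (exact permutation p = 0.14, adjusted p = 0.39), and 10 of its 12 tested members rose, among them Ngp at 5.54 ± 0.96 and S100a8 at 3.92 ± 0.95. This neutrophil signal moved with the inflammatory genes above in replicates 1 to 3, and since neutrophils also express Il1r2, Il1rn, Cxcr2, Cxcl2, Csf3r and Lcn2, its part in those rises was not tested. Monocyte and macrophage markers summed to 237 to 1050 in the controls and 4082, 403, 522 and 0 at 6 hr, lymphocyte markers to 36.1 to 57.2 and 625, 16.0, 36.4 and 0, and airway epithelial markers to 1275 to 3578 and 10173, 5027, 1827 and 39.3. Replicate 1 at 6 hr was thus the highest library for these lists. Alveolar epithelial markers were abundant in both groups, at 2271 to 9650 and 472 to 11535 normalised CPM. Cardiac muscle markers summed to 44.2 to 119 at 0 hr and 320, 528, 59.8 and 118 at 6 hr, and mesenchymal markers to 525 to 649 and 396 to 482 (exact permutation p = 0.029, adjusted p = 0.31). Platelet, erythroid and mesothelial lists had no calls.

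The 6 hr response of lung was compared with those of heart and brain by the interaction of tissue and time in a joint fit of the lung libraries with 5 per group of heart and brain. Of 18975 genes tested, 1071 (5.64%) had a lung response above that of heart and 1253 (6.60%) below, and 759 (4.00%) and 704 (3.71%) above and below that of brain. This fit did not pair organs by mouse. With the mouse, read from file-name patterns, as a block, 1049 genes differed from heart and 271 from brain. In heart and brain 1 of the 5 libraries labelled 6 hr each stood apart from the other 4. Both were of file-name series 1, as was lung 6 hr replicate 4. That lung library had 0 counts of Rsad2 and Gbp4, where lung replicates 1 to 3 stood above its limit of 59.0 normalised CPM. Its Lcn2, Cxcl1 and Nfkbia were above every lung control. The part of the series in these levels was not tested. Cxcl1 was at 3.72 normalised CPM in heart replicate 5 and 1083 to 3860 in the other 4, and at 1.15 in brain replicate 6 and 216 to 2538 in the other 4. Lcn2 was at 43.2 in the same heart library and 253 in the same brain library, far below the other 4 of each tissue but above its controls. Without these heart and brain libraries the differences numbered 3061 and 1706. Bmp4 showed opposite movements. Bmp4 fell in lung (-3.03 ± 0.73 in the joint fit) and rose in heart (2.57 ± 0.60), a difference of -5.61 ± 0.94 (adjusted p = 0.0011) that was also called with replicate 3 as the only lung 6 hr library (-6.33, adjusted p = 0.037). Hilpda, a lipid droplet protein, fell in lung (-2.90 ± 0.63) and rose in heart (1.74 ± 0.55), a difference of -4.65 ± 0.81 (adjusted p = 0.0014) that was not called with replicate 3 alone (-3.57, adjusted p = 0.056). Vcam1 rose in heart (3.43 ± 0.53) and gave 0.19 ± 0.55 in lung, a difference of -3.24 ± 0.72 (adjusted p = 0.0067). Tmem252 rose in heart by 7.30 ± 1.10 and gave 1.80 ± 1.02 in lung in this fit, a difference of -5.50 ± 1.29 (adjusted p = 0.0091) that was not called with replicate 3 alone (-5.30, adjusted p = 0.20). Vcam1 was not refitted in that way. Against brain, Hpgd (-6.55 ± 1.09), Tmem100 (-5.21 ± 1.15), Thbd (-4.64 ± 0.98) and Hey1 (-4.02 ± 1.18) had a lung response below that of brain, with adjusted p of 0.0014, 0.0066, 0.005 and 0.035. None of these 4 differences was called with replicate 3 as the only lung 6 hr library (adjusted p = 0.084, 0.061, 0.091 and 0.37), and that of Tmem100 was not called with the mouse, read from file-name patterns, as a block (-3.41, adjusted p = 0.085). Hpgd and Tmem100 stood at medians of 431 and 195 normalised CPM in control lung and 4.45 and 34.7 in control brain in this fit. Cxcl10 rose in all 3 tissues, with differences of -0.44 ± 1.46 (heart, adjusted p = 0.93) and 0.79 ± 1.45 (brain, adjusted p = 0.80). Among the genes with the largest responses above heart or brain, Cfap46, Upf2, mt-Co1, Fth1, Sec14l3 and Gm6058 were those of the shallow lung libraries, and with replicate 3 as the only lung 6 hr library none of these differences was past the threshold.

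**Figure D5:**
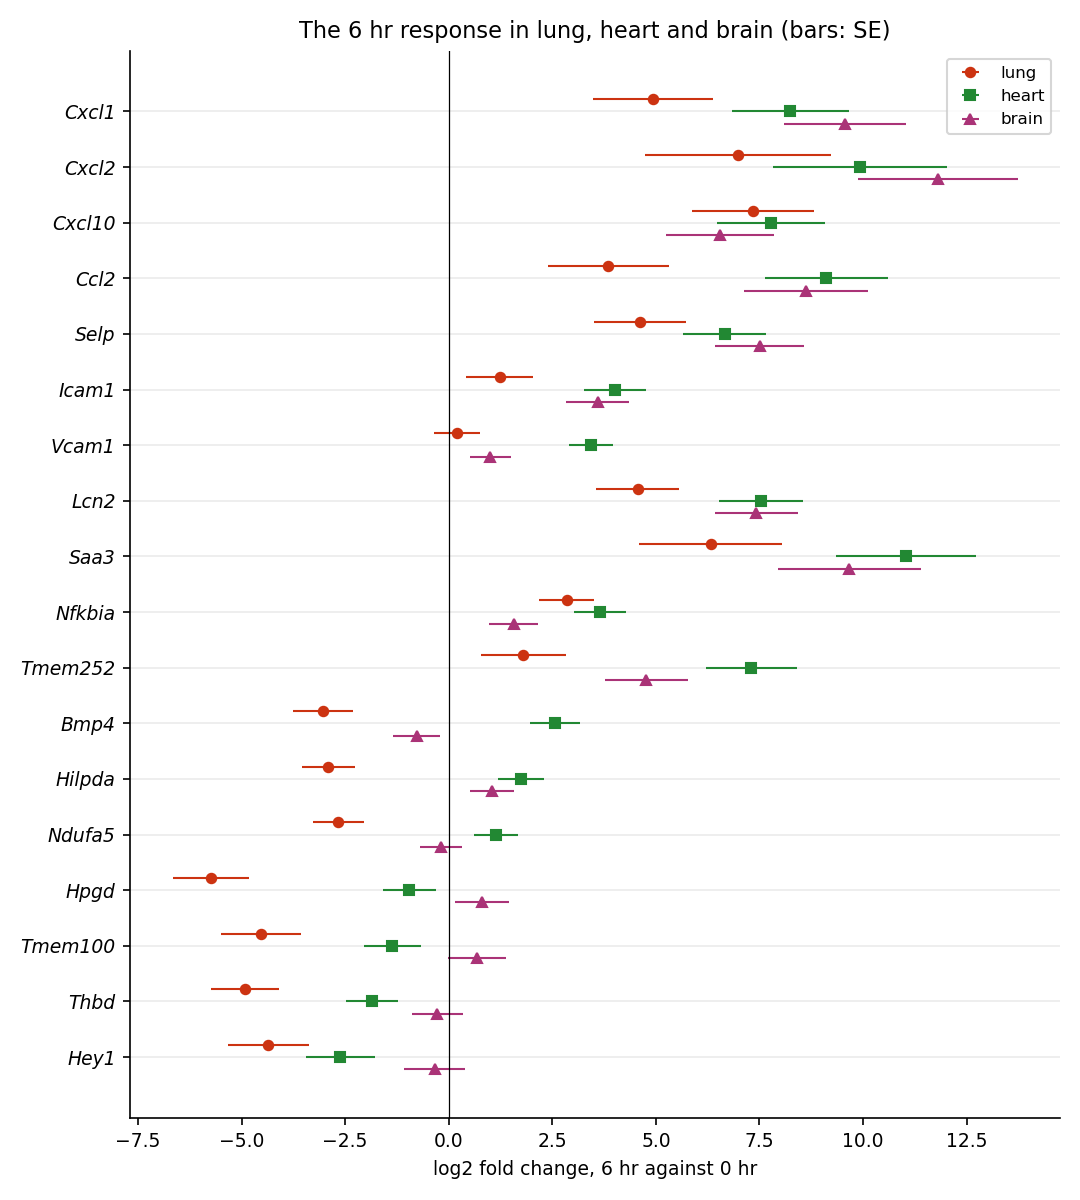
Log2 fold change at 6 hr against 0 hr with its SE for 18 genes in lung (circles), heart (squares) and brain (triangles), from the joint fit. Bmp4 lies at -3.03 in lung and 2.57 in heart, Hpgd at -5.75 in lung, -0.95 in heart and 0.80 in brain, and Cxcl10 within 6.55 to 7.78 in all 3.

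The later lung libraries share their controls with the 6 hr comparison, and their medians are given side by side. In the order of 0, 6, 24, 48, 72 and 168 hr, Saa3 stood at 23.1, 3662, 8524, 3664, 2005 and 5.42 normalised CPM. Cxcl10 stood at 1.14, 181, 139, 9.23, 2.85 and 2.87, and Mt2 at 11.5, 1114, 7486, 1609.5, 56.2 and 9.08. Of the fallen genes, Hey1 stood at 393, 19.0, 20.7, 33.0, 114 and 338, Thbd at 1017, 34.1, 321, 199, 463 and 2503, and Bmp4 at 254, 17.4, 68.8, 43.6, 71.4 and 57.5. The 24 hr median rests on 2 libraries. The 168 hr medians of Saa3, Cxcl10, Mt2 and Thbd lay within the range of the controls, that of Thbd above its control median. Those of Bmp4 were below its control median at each later time. In edgeR's test its later change passed at 48 hr only (adjusted p = 0.84, 0.046, 0.29 and 0.97 at 24, 48, 72 and 168 hr).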

How the data were processed

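The authors sequenced polyA-selected RNA from ribosome pull-downs, aligned reads with STAR 2.4.2 to mm10 and counted them per gene with HTSeq 0.6.1, and deposited raw counts per run. The annotation release and strand setting are not given in the sources used here. The runs of each library (25 for lung at 0 and 6 hr) were summed, and libraries with under 3% of reads on genes were left out. Of 52550 gene identifiers, 52403 were matched to GENCODE symbols. Counts from 24 lung libraries of all times were fitted with edgeR 4.0.16 (R 4.3.3; TMM, filterByExpr, quasi-likelihood test, two-sided), with the library series (read from file-name patterns) in the model, and p-values were adjusted by Benjamini-Hochberg across 12116 genes. The labels do not say that replicates came from separate animals, so p-values measure only the spread between these libraries.

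Reads off genes made up 43.8% to 96.6% of the lung libraries at 0 and 6 hr, which limits depth. Named genes were, in each direction, the 12 with the largest change, groups that do not overlap and a mean log2 CPM of 5 or more; up to 3 risen and 3 fallen members per gene list; the 5 largest tissue differences per direction; and fixed genes of the LPS response. Some of the genes these rules name are not reported here. The members and lists were chosen with earlier results of these data known. Alternatives used limma 3.58.1, DESeq2 1.42.0, other filters, other scaling and libraries left out. The fit was tested on simulated counts. Figures were drawn with matplotlib 3.10.9.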

Additional observations from a re-analysis of the deposited data

Results flagged for a closer look

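Within the groups of 4 lung libraries, 25 of 242 gene groups and 3 of 26 other groups held a library that stood apart from the rest by Dixon's test, where chance alone gives about 1 in 20. Replicate 4 at 6 hr stood apart in 12 genes. It was at 0 normalised CPM for Il1r2, Il1rn, Zbp1, Inhbb, Rsad2, Slc39a14, Gbp5, Gbp4, Casp4, Nr1d2 and Pfkfb3, and at 19.7, a single count, for Icam1. Replicate 3 at 6 hr was the only 6 hr library with counts of Ly96 (2.18 normalised CPM), Casp6 (1.37) and Mvk (6.10), all of them called lower.

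Replicate 4 at 0 hr stood apart at 4172 for Ramp2, 37.6 for Aplnr, 71.1 for Bhlhe41 and 84.9 for Ndufa5, the last of these below the other controls. Replicate 1 at 6 hr stood apart at 8.89 for Ramp2 and 11.6 for Smad6, both below the other 6 hr libraries, and at the upper end for the monocyte and macrophage markers (a sum of 4082), the lymphocyte markers (625) and mitochondrial transcripts (3.63% of gene counts). Among the controls, replicate 1 was high for Il6 (3.95) and for Tlr4 (3.72), and replicate 2 low for Rps2 (0.990).

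The tested difference of the log2 response, lung minus heart, was past the threshold for Bmp4 (-5.61), Tmem252 (-5.50), Hpgd (-4.79), Hilpda (-4.65) and Ndufa5 (-3.80), and on the other side for Fth1 (5.23), Upf2 (5.36), mt-Co1 (5.43) and Cfap46 (7.44). The difference lung minus brain was past it for Hpgd (-6.55), Tmem100 (-5.21), Thbd (-4.64), Hey1 (-4.02) and Hilpda (-3.95), and on the other side for Sec14l3 (4.76), Upf2 (5.04), Cfap46 (5.76) and Gm6058 (6.13).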

How the results depend on the processing

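The count of genes called at 6 hr depended on the libraries and on the fit. Against 319 higher and 389 lower, the counts were 518 higher with DESeq2's size factors in edgeR, 1097 and 685 with DESeq2, 933 higher with no filter on low counts, 31 and 18 with the 0 and 6 hr libraries only, 130 and 124 with the libraries under 3% included, and, chosen after seeing the data, 191 and 23 with replicate 3 as the only 6 hr library, 50 and 43 with sample quality weights in limma-voom, and 0 and 0 within library series 2. Leaving out a library in turn gave 87 (without 0 hr replicate 3) to 799 (without 6 hr replicate 3) higher and 134 to 3247 lower, with the same 2 libraries at the ends. Counts of calls under the other alternatives were within 1.5 times.

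Differences between tissues, 2324 against heart and 1463 against brain, numbered 1049 and 271 with the mouse, read from file-name patterns, as a block, 373 and 380 with replicate 3 as the only lung 6 hr library, and 698 against brain within series 2. Leaving out a library gave 1814 to 6353 (heart) and 1146 to 5689 (brain), the highest without 6 hr replicate 3. With that block the differences from brain of Tmem100, Upf2, Sec14l3 and Gm6058 were no longer called (adjusted p = 0.085, 0.061, 0.38 and 0.14). Without the heart and brain libraries that stood apart Gm6058 was no longer called (adjusted p = 0.061).

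Replicate numbers are shared between the groups but only name libraries: deviations of same-numbered libraries correlated at 0.0073, 0.0071, 0.24 and 0.021, and not every library correlated best with its own number. With the replicate block the counts were 241 higher and 395 lower, and 1648 and 926 for the tissue differences.

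Signs turned for genes near 0 or of the shallow libraries. With replicate 3 as the only 6 hr library the log2 fold changes were -2.53 (Cfap46), 0.85 (Cldn5), -0.61 (Gm6058), -0.039 (Naa15), 0.58 (Nos3), -0.10 (Ptgds), 0.039 (Rpl22), -1.59 (Sec14l3), -0.27 (Tlr4), -0.86 (Upf2) and -1.67 (mt-Co1), and the differences from brain -0.59 (Cfap46) and -0.28 (Sec14l3). With a prior count of 0.5 the difference of mean log2 CPM was -0.30 for Procr and -0.24 for Socs3. Angpt2 gave -0.049 with the replicate block and -1.46 to 1.88 with a library left out, the lowest without 6 hr replicate 3. Leaving out a library gave -0.83 to 0.19 for Nos3, -0.81 to 0.049 for Pecam1, -0.99 to 1.00 for Tlr4 and -0.48 to 0.66 for Vcam1. Pecam1 also gave 0.0099 with DESeq2, 0.0079 with its size factors and 0.19 with the libraries under 3% included, Tlr4 -0.13 with limma-voom, and Vcam1 -0.40 with quality weights, -0.38 with the 0 and 6 hr libraries only and -0.10 with the block. The causes were not tested. At the depth of 6 hr replicate 4, a count of 0 still allowed a level of up to 59.0 normalised CPM.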
